A study of Mus musculus with 16 samples.

Results

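The genes described here are 9 genes of inhibitory neurons of the cerebellum, taken by symbol: Gad1, Gad2, Slc32a1, Slc6a5, Pvalb, Kit, Grm2, Sst and Pax2. They were found by their current or older symbol among the non-control probes of an Agilent one-colour mouse array, which gave 9 of 27670 gene or clone names and 12 of 41174 probes, with 3 probes for Gad1, 2 for Gad2 and 1 for each other gene. The study compared whole cerebella of Npc1-/- mice with those of wild-type mice, all 3 weeks old and all bred in-house from heterozygous parents of the BALB/cNctr-Npc1m1N/J strain on a BALB/c background. Npc1-/- mice carry the strain's Npc1 allele on both chromosomes in every cell, so no promoter or cell type limits the loss. No treatment was given in either group. Each genotype had 4 arrays, numbered in the sample titles, and the labels name 8 mice, 4 of each genotype, without saying which mouse was put on which array, so p-values measure the spread between these arrays. A whole cerebellum mixes all its cell types, and in such bulk RNA fewer cells of a type and less RNA per cell cannot be told apart.

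Inhibitory neurons of the cerebellum release GABA, glycine or both. Purkinje cells are the output neurons of the cortex, stellate and basket cells are the interneurons of the molecular layer, and Golgi cells are interneurons of the granular layer, many of which release glycine with GABA. The enzymes encoded by Gad1 and Gad2 make GABA from glutamate, the vesicular transporter encoded by Slc32a1 loads GABA and glycine into synaptic vesicles, and the transporter encoded by Slc6a5 takes glycine back into glycinergic terminals. Pvalb encodes the calcium-binding protein parvalbumin of Purkinje, stellate and basket cells. Kit encodes the receptor of stem cell factor and marks molecular layer interneurons, Grm2 and Sst mark Golgi cells, and Pax2 encodes a transcription factor of young inhibitory interneurons. Npc1 encodes the protein that moves cholesterol out of late endosomes and lysosomes, and mice without it lose Purkinje cells as they age.

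All signals below are log2 values of the background-corrected spot signal minus the array's 75th percentile, and a difference is Npc1-/- minus wild type on that log2 scale. The Npc1 probe checked the labels. It read -2.53, -2.44, -2.32 and -2.60 on Npc1-/- arrays 1 to 4 and -0.52, -0.40, -0.64 and -0.37 on wild-type arrays 1 to 4, a difference of -1.99 ± 0.10 (SE, limma, adjusted p = 0.00045). Between 22182 and 28128 probes per array were well above background, with the fewest on wild-type array 2. On the first principal component, which held 47.0% of the variance, wild-type array 3 lay farthest out, at 73.0 against -36.5 to 23.0 for the other 7 arrays. Purkinje cell markers (13 of 14) and granule cell markers (12 of 12) passed the background filter. Across all 17981 genes tested, 132 were higher and 6 were lower in Npc1-/- cerebella at an adjusted p under 0.05. The arrays lay on 4 slides scanned on 2 days, with wild-type array 4 alone on slide 1. Npc1-/- array 2 shared slide 2 with wild-type array 3, Npc1-/- array 3 shared slide 4 with wild-type array 1, and Npc1-/- arrays 1 and 4 shared slide 3 with wild-type array 2. A difference within a slide therefore has 1 wild-type array behind it.

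The probes decide what can be said of 4 of the genes, and the first or marked 30 bases of those probes are shown for that reason, 5′ to 3′, as the array files give them. Capitals mark the bases AATAAA in the Slc6a5 probe and a run of 8 G in the Pax2 probe. AATAAA has the sequence of a polyadenylation signal, and whether it serves as one here was not tested. The other windows are in lower case because no part of them was singled out. The first Gad2 probe (chr2:22675289-22675347, mm7) was designed to the Gad2 mRNA, and the second (chr2:22678524-22678583, mm7) to a clone that the array lists as 6330404F12Rik, an older synonym of Gad2. The Grm2 probe of the list (chr9:106372306-106372365, mm7) was designed to a clone, and a pair of further probes that the array only describes as metabotropic glutamate receptor 2 follow it.
Gad2, mRNA probe: tttgtaatcacctcactcatcaaaactgtt
Gad2, clone probe: agtaacaggacaaagaagcaaaaacatcaa
Slc6a5 probe: gtactgttcatgAATAAAgatgtttcctag
Pax2 probe: tgaaccagctcGGGGGGGGtgtttgtgaac
Grm2 probe of the list: gcggcgcaggttaaatgagaaaagtttatc
Grm2 by description, first: ggcatcaatgggctggtgaagtctctggaa
Grm2 by description, second: catggctgagattctccgctttttcaactg

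The order in which the array lists a probe's ends follows the strand of its gene. Among probes named by accession, 99.5% of the 9217 on plus-strand genes were listed in ascending order and 99.4% of the 9017 on minus-strand genes in descending order, with strands from RefSeq's mouse GRCm38.p6. Of the 12 probes, 8 followed this order and 4 went against it. The 4 were the Grm2 probe of the list and all 3 Gad1 probes. The Grm2 probe starts 248 bases from the first of the described probes, which is listed in the order of the Grm2 strand. The probe of the list and the described probe are thus listed in opposite orders. Listed order alone does not settle which strand a probe reads, and that was not tested. The Gad1 probes were listed in descending order on chromosome 2 of mm7, although RefSeq places Gad1 on the plus strand of GRCm38.p6; no mm7 sequence was used here, and the reason was not tested. Both Gad1 probes designed to the Gad1 mRNA were well above background on all 8 arrays. The Pax2 probe and the Gad2 mRNA probe are 60 bases long but span 59 bases of mm7. Exon and UTR annotation of mm7 was not used here.

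No difference between the genotypes was called for any of the 8 members tested. Of the 9 genes, 8 were well above background on at least 4 arrays and were tested, and none passed an adjusted p of 0.05 in limma, against 0.767% of all genes tested. None passed at an unadjusted p of 0.05 either in limma, which 7.4% of all genes did. The adjusted p ran from 0.752 to 1.00. The difference was positive for 4 genes (Gad1, Gad2, Slc6a5 and Sst) and negative for the other 4 (Slc32a1, Pvalb, Kit and Pax2), with a median of -0.054 beside -0.015 over all genes. At the level of probes, 10 of the 12 were tested and none passed, against 0.523% of all probes. A p above the threshold does not show equal levels, so the 95% interval of each difference is given with it. The plot of signals by array shows how far the arrays of one genotype spread.

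**Figure D1:**
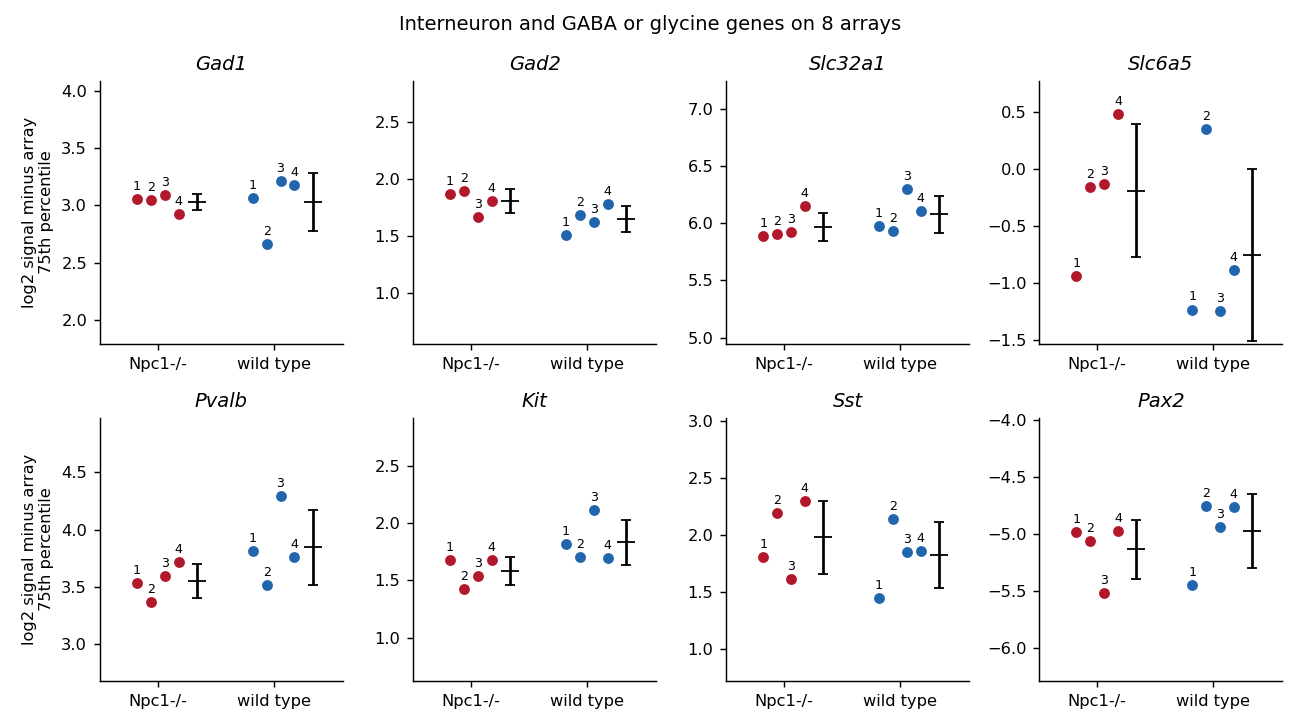
Log2 signal minus the array's 75th percentile (y axis) of the 8 genes tested on each array, with the replicate number above each point, Npc1-/- in red and wild type in blue. Bars show the mean ± SD of 4 arrays, and every panel spans the same width on the log2 scale; the genotypes overlap for every gene but Kit, whose highest Npc1-/- value (1.68) is just under its lowest wild-type value (1.69).

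The enzymes of GABA synthesis came first. The representative Gad1 probe (chr2:70469090-70469149, mm7) read 3.06, 3.04, 3.09 and 2.92 on Npc1-/- arrays 1 to 4. On wild-type arrays 1 to 4 it read 3.06, 2.66, 3.21 and 3.18. Wild-type array 2 was the lowest of the 8 and wild-type array 3 the highest, so the wild-type arrays enclosed every Npc1-/- value. The means were 3.03 ± 0.07 in Npc1-/- and 3.03 ± 0.25 in wild type (SD, n = 4), and the difference was 0.00012 (95% interval -0.30 to 0.30, adjusted p = 1.00). Of the single arrays left out, wild-type array 2 moved this value most, to -0.12, and normexp background correction with quantile normalization gave 0.13. On slides 2, 3 and 4 alone the difference was -0.17, 0.33 and 0.023, so its sign was not shared by the slides. The second probe of the Gad1 mRNA (chr2:70468992-70469051, mm7) gave a difference of -0.11 ± 0.13 (SE; interval -0.40 to 0.19, adjusted p = 0.840). The third Gad1 probe, designed to a clone (chr2:70473646-70473705, mm7), stayed at background on all 8 arrays.

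Gad2 encodes the form of the enzyme that sits at synaptic terminals. Its clone probe, the brighter of the pair, read 1.86, 1.90, 1.66 and 1.80 on the Npc1-/- arrays. It read 1.51, 1.68, 1.62 and 1.78 on the wild-type arrays. The groups overlapped, with Npc1-/- array 3 under wild-type arrays 2 and 4. The means were 1.81 ± 0.10 and 1.65 ± 0.11 (SD, n = 4), a difference of 0.16 (interval -0.07 to 0.38, adjusted p = 0.752) with within-slide values of 0.28, 0.15 and 0.15. Gad2 was one of 3 members, with Kit and Pax2, whose difference kept its sign within all 3 slides. The share of all genes that do so was not counted. The mRNA probe read 0.82, 0.37, 0.74 and 0.22 on Npc1-/- arrays and 0.54, 0.29, -0.14 and 0.50 on wild-type arrays. Its difference was 0.24 (interval -0.20 to 0.68, adjusted p = 0.811) and its SE 0.19, against 0.10 for the clone probe, and both probes gave a positive difference.

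The transporters followed. Slc32a1 (chr2:158356478-158356537, mm7) read 5.89, 5.91, 5.93 and 6.15 on Npc1-/- arrays 1 to 4. On the wild-type arrays it read 5.98, 5.93, 6.30 and 6.11. Npc1-/- array 4 stood above the other 3 of its genotype and above 3 of the 4 wild-type arrays. The means were 5.97 ± 0.12 and 6.08 ± 0.16 (SD, n = 4), a difference of -0.11 (interval -0.37 to 0.15, adjusted p = 0.774). The difference within slides 2, 3 and 4 was -0.39, 0.09 and -0.05. Without wild-type array 3 the difference was -0.036, and after normexp background correction and quantile normalization it turned to 0.06.

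Slc6a5, the transporter of glycinergic terminals, varied more between arrays than any other tested member, over a range of 1.72 (3.29-fold) across the 8 arrays. Its probe (chr7:46184193-46184252, mm7) read -0.94, -0.16, -0.14 and 0.48 on Npc1-/- arrays 1 to 4. It read -1.23, 0.35, -1.24 and -0.89 on wild-type arrays 1 to 4. Npc1-/- array 4 and wild-type array 2 were highest, Npc1-/- arrays 2 and 3 came next, and the other 4 arrays, 3 of them wild type, were lowest. The means were -0.19 ± 0.58 and -0.75 ± 0.75 (SD, n = 4), a difference of 0.56 (interval -0.37 to 1.49, adjusted p = 0.752). Within slides 2, 3 and 4 the difference was 1.08, -0.58 and 1.09, so it turned negative on the slide that holds wild-type array 2. Leaving out single arrays moved it by over 1.5 times in both directions, to 0.93 without wild-type array 2 and to 0.34 without Npc1-/- array 4.

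Several Hox genes varied over the arrays in nearly the same order as Slc6a5, a pattern noticed after the values were seen. Besides Golgi cells, glycinergic neurons of the brainstem and the cerebellar nuclei express Slc6a5, and Hox genes are expressed in the brainstem behind the part of the hindbrain that forms the cerebellum. The median of the 10 tested Hox genes of 12, each centred on its own mean over the arrays, was -0.69, 0.71, 1.46 and 2.15 on Npc1-/- arrays 1 to 4. It was -2.39, 2.00, -2.57 and -0.65 on wild-type arrays 1 to 4. The highest Hox medians were those of Npc1-/- array 4 and wild-type array 2 and the lowest those of wild-type arrays 3 and 1, as for Slc6a5. Single Hox genes ran from a Pearson r of 0.20 to one of 0.97 with Slc6a5 over the 8 arrays, so not all of them shared its order. Only Hoxa3 and Hoxc4 were well above background on all 8 arrays. Hoxa3 ran from -3.05 on wild-type array 1 to -2.18 on Npc1-/- array 4. Hoxc4 ran from -3.53 on wild-type array 3 to -2.85 on Npc1-/- array 2. Hoxb5 ran from -7.91 on wild-type array 3 to 0.15 on Npc1-/- array 4. Of the 10 tested Hox genes, 2 were well above background on wild-type arrays 1 and 3, 7 on wild-type array 4, 8 on Npc1-/- array 1 and on wild-type array 2, and all 10 on Npc1-/- arrays 2, 3 and 4. Such counts do not share one floor. The lowest signal well above background was -3.90 on wild-type array 2, against -6.04 to -5.36 on the other arrays. Hoxa2 (-4.06) and Hoxb4 (-4.44) were not counted on wild-type array 2. On Npc1-/- array 1 they were counted at -5.74 and -5.89. Over the whole list of hindbrain and brainstem genes, 16 of 20 were tested and all 16 had a positive difference, with a median of 1.5, but 11 of the 16 were above background on fewer wild-type than Npc1-/- arrays and so passed the filter mainly through the group where they were high. The 5 that were above background on all 8 arrays (Hoxa3, Hoxc4, Slc17a6, Th and Dbh) had a median of 0.20. None of the 16 passed the threshold in limma and 2 (Th and Dbh) had an unadjusted p under 0.05. The list's centred median ran from 0.024 to 1.34 on Npc1-/- arrays and from -2.27 to 1.38 on wild-type arrays. Within slides 2, 3 and 4 its difference was 2.99, -0.62 and 2.19, a median mostly of genes above background on fewer wild-type arrays. The 5 genes above background on all 8 arrays went the other way on slide 3. Each read higher on Npc1-/- arrays 1 and 4 than on wild-type array 2. The part of the hindbrain and brainstem genes in the Slc6a5 values was not tested. With array median scaling, and with quantile normalization with or without normexp, 15 of the 16 were positive and 1 negative, and the median was 0.45 with normexp and quantile normalization together.

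**Figure D2:**
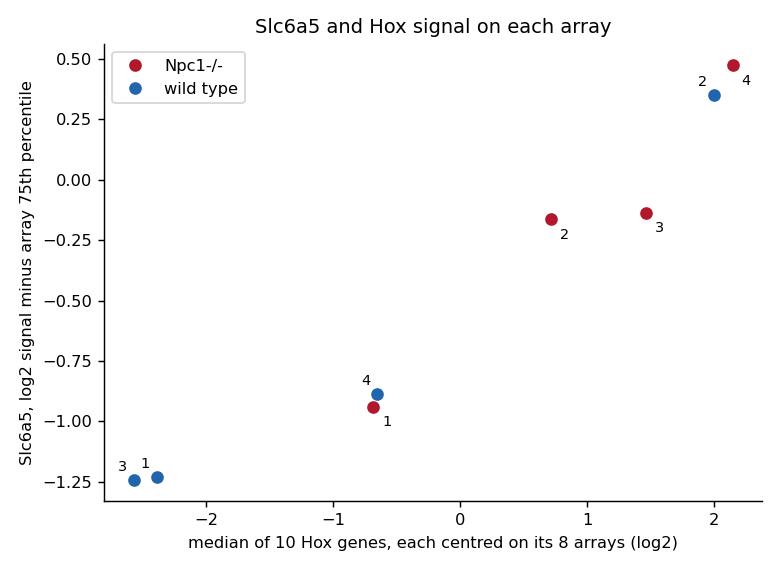
Slc6a5 signal (y axis, log2 minus the array's 75th percentile) against the median of 10 Hox genes, each centred on its mean over the arrays (x axis, log2), for each array; numbers are replicates. Wild-type arrays 1 and 3 sit at the lower left (Hox median -2.39 and -2.57) and wild-type array 2 at the upper right (2.00), beside Npc1-/- array 4 (2.15). Of the 10 Hox genes, only Hoxa3 and Hoxc4 were well above background on all 8 arrays.

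Not all other brainstem genes shared that order. Slc5a7, of the same list, did at its ends. It was highest on wild-type array 2 (-1.90) and Npc1-/- array 4 (-2.34). Its lowest values were on wild-type arrays 3 (-5.89) and 1 (-4.81). Slc6a4 and Tph2, which encode the serotonin transporter and the enzyme of serotonin synthesis in raphe neurons, were highest on Npc1-/- arrays 1 and 2. Slc6a4 read -0.41, -0.66, -4.55 and -3.42 on Npc1-/- arrays and -6.11, -3.93, -7.50 and -2.25 on wild-type arrays. It was well above background on 4 Npc1-/- arrays and 1 wild-type array. Thus Npc1-/- array 1, low for Slc6a5 and most Hox genes, held the most Slc6a4 signal.

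The markers of cell types came next. Pvalb (chr15:78274169-78274228, mm7) read 3.53, 3.36, 3.60 and 3.72 on Npc1-/- arrays 1 to 4. It read 3.81, 3.51, 4.29 and 3.76 on wild-type arrays 1 to 4. Wild-type array 3 stood well above the other 7, and wild-type array 2 lay among the Npc1-/- values. The means were 3.55 ± 0.15 and 3.84 ± 0.33 (SD, n = 4), a difference of -0.29 (interval -0.68 to 0.09, adjusted p = 0.752). Within slides 2, 3 and 4 it was -0.93, 0.11 and -0.22. Without wild-type array 3 the difference was -0.14.

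Kit had the smallest p of the members and was the only one whose genotypes did not overlap, which held for 4.92% of all genes tested. Its probe (chr5:75074515-75074574, mm7), spotted 10 times on each array, read 1.68, 1.43, 1.54 and 1.68 on Npc1-/- arrays. It read 1.82, 1.70, 2.12 and 1.69 on wild-type arrays. The gap between the groups was 0.010, smaller than the spread of the 10 spots on any one array (SD 0.019 to 0.079). The means were 1.58 ± 0.12 and 1.83 ± 0.20 (SD, n = 4), a difference of -0.25 (interval -0.53 to 0.03, limma adjusted p = 0.752). By slide (2, 3 and 4) it was -0.69, -0.022 and -0.28. The unadjusted p of Kit in limma was 0.0732. Without wild-type array 3 the difference was -0.15. Kitl, which encodes the ligand of the Kit receptor, read 0.22, 0.42, 0.18 and 0.08 on Npc1-/- arrays and 0.49, 0.16, 0.91 and 0.58 on wild-type arrays. Its difference was -0.31 ± 0.16 (SE, adjusted p = 0.752), with the groups overlapping.

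Sst encodes somatostatin, a peptide of some Golgi cells. Its probe (chr16:23547994-23548053, mm7), also spotted 10 times, read 1.80, 2.19, 1.62 and 2.30 on Npc1-/- arrays and 1.45, 2.14, 1.85 and 1.86 on wild-type arrays. Npc1-/- arrays 2 and 4 and wild-type array 2 were highest. The means were 1.98 ± 0.32 and 1.82 ± 0.28 (SD, n = 4), a difference of 0.15 (interval -0.29 to 0.60, adjusted p = 0.807), with within-slide values of 0.34, -0.09 and 0.17. The spots of one array differed by an SD of 0.038 to 0.077, well under the spread between arrays. Leaving out single arrays moved the Sst difference between 0.028 (without wild-type array 1) and 0.27 (without Npc1-/- array 3).

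Pax2 was near background. Its probe (chr19:44654758-44654816, mm7), spotted 10 times, was well above background on all 4 Npc1-/- arrays and on 2 wild-type arrays. It read -4.98, -5.06, -5.52 and -4.97 on Npc1-/- arrays and -5.45, -4.75, -4.94 and -4.76 on wild-type arrays. Its spots scattered more than those of Kit and Sst, with an SD of 0.083 to 0.75 within an array. The lowest values of both genotypes, Npc1-/- array 3 and wild-type array 1, were the arrays of slide 4. The means were -5.13 ± 0.26 and -4.97 ± 0.33 (SD, n = 4), a difference of -0.16 (interval -0.59 to 0.28, adjusted p = 0.795), and within slides 2, 3 and 4 it was -0.12, -0.23 and -0.07. It was -0.032 without Npc1-/- array 3 and -0.32 without wild-type array 1.

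Grm2 could not be tested. The probe of the list stayed at background on the 7 arrays that gave a value, and its spot on Npc1-/- array 2 carried an outlier flag and was left out. It gives no difference and, as the strand it reads was not tested, no bound on Grm2 either. The pair of probes that the array describes as metabotropic glutamate receptor 2 without naming Grm2 fall outside the rule and were looked at after the values were seen. The first (chr9:106372554-106372613, mm7) read -4.04, -4.32, -3.72 and -4.12 on Npc1-/- arrays and -3.48, -4.12, -3.42 and -3.52 on wild-type arrays, a difference of -0.42 ± 0.19 (SE, adjusted p = 0.799). The second (chr9:106380491-106380550, mm7) read -5.15, -4.40, -5.49 and -3.47 on Npc1-/- arrays and -4.76, -5.51, -6.12 and -5.41 on wild-type arrays, a difference of 0.82 ± 0.45 (SE, adjusted p = 0.811). The pair pointed in opposite directions, and neither passed the threshold. The first was well above background on 4 Npc1-/- and 3 wild-type arrays, and the second on 4 Npc1-/- and 2 wild-type arrays.

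**Figure D3:**
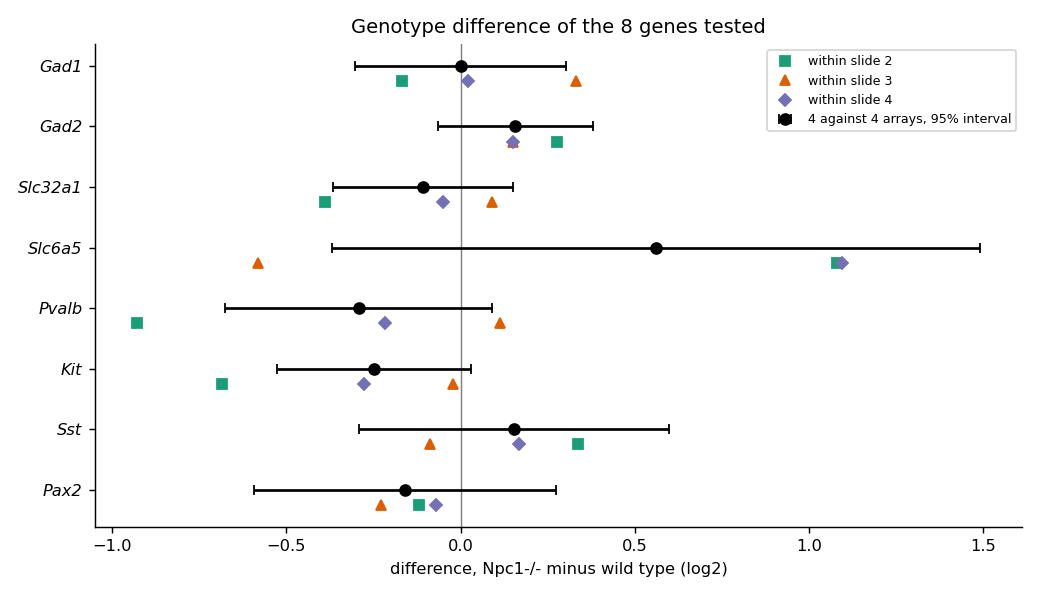
Difference between genotypes (x axis, log2, Npc1-/- minus wild type) of the 8 genes tested; black points show the limma estimate over 4 against 4 arrays with its 95% interval, and coloured points the difference within slides 2, 3 and 4. Every interval holds 0, the widest is that of Slc6a5 (-0.37 to 1.49), and for 5 genes the slides do not share a sign.

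Pvalb, Kit and Slc32a1 were each highest on wild-type array 3. That array gave the highest value of 4 of the 8 tested members (Gad1, Slc32a1, Pvalb and Kit), of 10 of the 13 tested Purkinje cell markers and of 8 of the 12 granule cell markers, and it gave the highest value of 30.8% of all genes tested. Among the 28 pairs of tested members, Pvalb and Kit had a Pearson r of 0.93 over the 8 arrays (exact permutation p = 0.00298, adjusted 0.083) and a Spearman rho of 0.74 (exact p = 0.0458, adjusted 0.230). Slc32a1 and Pvalb had an r of 0.87 (exact p = 0.00623, adjusted 0.087) and a rho of 0.79 (exact p = 0.0279, adjusted 0.230). Neither pair passed after Benjamini-Hochberg adjustment over the 28 pairs, and no other pair did. Without the 2 arrays farthest from the Pvalb median, wild-type array 3 and Npc1-/- array 2, the r of Pvalb with Kit was 0.53. Without wild-type array 3 and Npc1-/- array 4, the r of Slc32a1 with Pvalb was 0.70. Slc32a1 with Kit (r = 0.75, exact p = 0.0312, adjusted 0.218; rho = 0.71, exact p = 0.0576, adjusted 0.230) dropped to 0.38 without the same arrays. Gad1 with Slc6a5 was the remaining pair whose r had an unadjusted p under 0.05, in the opposite direction (r = -0.75, exact p = 0.0149, adjusted 0.139; rho = -0.71, exact p = 0.0576, adjusted 0.230), and it was -0.67 without wild-type arrays 2 and 3. Gad2 with Kit had such a p for rho only (rho = -0.74, exact p = 0.0458, adjusted 0.230; r = -0.60, exact p = 0.107, adjusted 0.356), and its r was -0.45 without wild-type array 1 and Npc1-/- array 2. The r of each pair among Pvalb, Kit and Slc32a1 thus fell when wild-type array 3 and another array were left out together. The part of wild-type array 3 alone was not tested, and samples of both genotypes enter all these relations.

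The median spot signal minus the 75th percentile used for scaling was -3.51 on wild-type array 3, against -3.22 to -3.01 on the other arrays. The part of that in the values given here was not tested. Purkinje cell markers moved with the same array. Their median, each gene centred on its mean over the arrays, ran from -0.17 to -0.06 on Npc1-/- arrays and was 0.06, -0.11, 0.45 and 0.10 on wild-type arrays 1 to 4. All 13 tested Purkinje markers had a negative difference, with a median of -0.22, but none passed the threshold in limma and 1 had an unadjusted p under 0.05. Quantile normalization, with or without normexp, turned 1 of the 13 to the other side, as did leaving out Npc1-/- array 2 or wild-type array 1, and averaging the probes of a gene turned 2. The list's median was -0.16 with quantile normalization, with or without normexp, and -0.33 with array median scaling. Within slides 2, 3 and 4 the median of the list was -0.59, -0.017 and -0.14, and it was -0.13 without wild-type array 3. Calb1, the calcium-binding protein of Purkinje cells, read 5.79, 5.69, 5.84 and 5.91 on Npc1-/- arrays and 5.98, 5.76, 6.37 and 6.01 on wild-type arrays. The part of Purkinje cells in the Pvalb, Kit and Slc32a1 values was not tested. Granule cell markers lay the same way, with all 12 differences negative (11 when the probes of a gene were averaged), a median of -0.24, none past the threshold and 3 at an unadjusted p under 0.05.

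**Figure D4:**
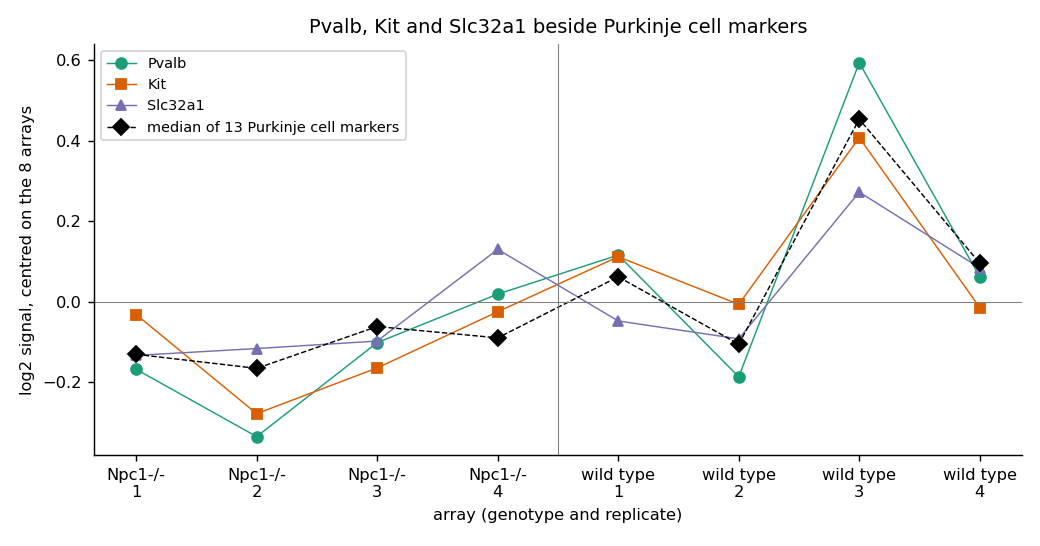
Log2 signal of Pvalb, Kit and Slc32a1, each centred on its mean over the 8 arrays, and the median of 13 Purkinje cell markers treated the same way (y axis), for each array (x axis). All 4 lines peak on wild-type array 3, where the Purkinje median is 0.45.

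For each tested member the genes whose signal ran most like it were those with the highest Pearson r over the 8 arrays among 17965 genes, so each is the highest of many values over few arrays. For Gad1 they were Mospd4, Il11 and Ttyh1 (r of 0.978, 0.977 and 0.972). For Gad2 they were Fhad1, Adhfe1 and Tuba1c (0.980, 0.972 and 0.971), and for Slc32a1 they were Cdkl1, Krcc1 and Mrps16 (0.984, 0.983 and 0.981). Slc6a5 ran most like Kcnh8, Rimkla and Mab21l2 (0.984, 0.979 and 0.979), and 5 of its 10 nearest genes were Hox genes, a count made after the values were seen. These 5 were Hoxb3, Hoxa4, Hoxd4, Hoxa5 and Hoxb5. Each was well above background on 3 or 4 Npc1-/- arrays and on 1 or 2 wild-type arrays, so values at background enter their r. Pvalb ran most like Calb1 (0.993), then Emc7 and Insyn1 (0.984 and 0.983). Kit ran most like Pcif1, Trappc5 and Cox20 (0.966, 0.966 and 0.965). For Sst the genes were Pcp4l1, Sgsm2 and Vat1 (0.989, 0.977 and 0.976), and for Pax2 they were Fads1, Agk and Slc22a17 (0.974, 0.972 and 0.972). Only for Pvalb was the nearest gene itself one of the marker lists used here.

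The other genes of GABA and glycine handling showed no call either. Of 18 genes of GABA and glycine metabolism and transport, 17 were tested and none passed the threshold in limma. The difference was negative for 9 and positive for 8, with a median of -0.0083. An unadjusted p under 0.05 was seen for 4 of the 17, beside 7.4% of all genes tested. The clearest was Slc6a12, a betaine and GABA transporter, which read -0.96, -1.14, -1.36 and -1.45 on Npc1-/- arrays and -1.96, -1.73, -1.69 and -1.93 on wild-type arrays. All 4 Npc1-/- arrays were above all 4 wild-type arrays, but the difference of 0.60 ± 0.13 (SE) had an adjusted p of 0.120 in limma. The genotypes did not overlap for 2 of the 17 genes, beside 4.92% of all genes tested. Of the 19 alternatives run it passed with array quality weights only (0.74, adjusted p = 0.0170). Slc6a13, a related GABA transporter, differed by 0.46 ± 0.15 (adjusted p = 0.460), Slc38a5, an amino acid transporter, by -0.44 ± 0.18 (adjusted p = 0.621) and Shmt1, an enzyme that interconverts serine and glycine, by -0.37 ± 0.16 (adjusted p = 0.662). These 4 were named after their values were seen. By the rule of highest signal the list is represented by Slc6a9, the glycine transporter of glia, at -0.13 ± 0.11 (adjusted p = 0.753), and Slc38a1, a glutamine transporter of neurons, at 0.14 ± 0.10 (adjusted p = 0.752). Abat, which encodes the enzyme that breaks GABA down, differed by 0.028 ± 0.10.

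Genes of the inhibitory synapse and of inhibitory cell types were likewise without a call. Of 12 scaffold genes 11 were tested, with a median difference of -0.015 and none at an unadjusted p under 0.05. They included Gphn, the scaffold under GABA and glycine receptors, at -0.09 ± 0.09 (SE), and by signal Lhfpl4 and Clptm1 at -0.038 ± 0.12 and -0.12 ± 0.16. Of 15 transcription factors of the GABAergic lineage 11 were tested (median 0.026), with Lhx5 and Lhx1 at -0.31 ± 0.16 and -0.11 ± 0.13. Ptf1a, which specifies the lineage, was among the 4 not tested. Pax5, a relative of Pax2, differed by 0.96 ± 0.44 (adjusted p = 0.705) and was well above background on 4 Npc1-/- arrays and 2 wild-type arrays. Of 10 markers of molecular and Purkinje layer interneurons 9 were tested (median 0.033), with Nos1 and Ptprk at 0.033 ± 0.16 and -0.023 ± 0.10. All 5 Golgi cell markers were tested (median 0.058), with Lgi2 at 0.06 ± 0.11 and Nrgn at -0.24 ± 0.24. Of 4 markers of unipolar brush cells, excitatory interneurons that can also express Grm2, 3 were tested (median -0.09), with Calb2 at -0.09 ± 0.12 and Eomes at 0.34 ± 0.58. Of 16 ligands, receptors and relatives of the members 14 were tested (median -0.07), with Calb1 at -0.22 ± 0.14 and Penk at -0.046 ± 0.11. In these 6 lists no gene passed the threshold in limma or an unadjusted p of 0.05.

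Markers of other cells and regions were read for comparison. Of 8 microglia markers 2 were higher in Npc1-/- and none lower, beside 0.734% of all genes higher: Cd68 by 2.08 ± 0.13 and Trem2 by 1.49 ± 0.10 (SE, adjusted p = 0.00045 and 0.00053). All 8 oligodendrocyte markers had a negative difference, with a median of -0.58, but none passed in limma and 6 had an unadjusted p under 0.05. Pan-neuronal genes (9 of 9 tested, median -0.04), midbrain genes (6 of 8, median 0.16) and choroid plexus genes (7 of 8, median 0.046) had no call and no unadjusted p under 0.05. Mast cell and melanocyte genes, cells that also depend on Kit, had 5 of 11 tested, a median of 0.021, no call and 1 unadjusted p under 0.05 (Dct). Of 10 forebrain interneuron genes 2 were tested, with no call and no unadjusted p under 0.05; Npas1 was at 0.73 ± 0.42 (SE), while Lhx6 and the Dlx genes were not above background on enough arrays.

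**Figure D5:**
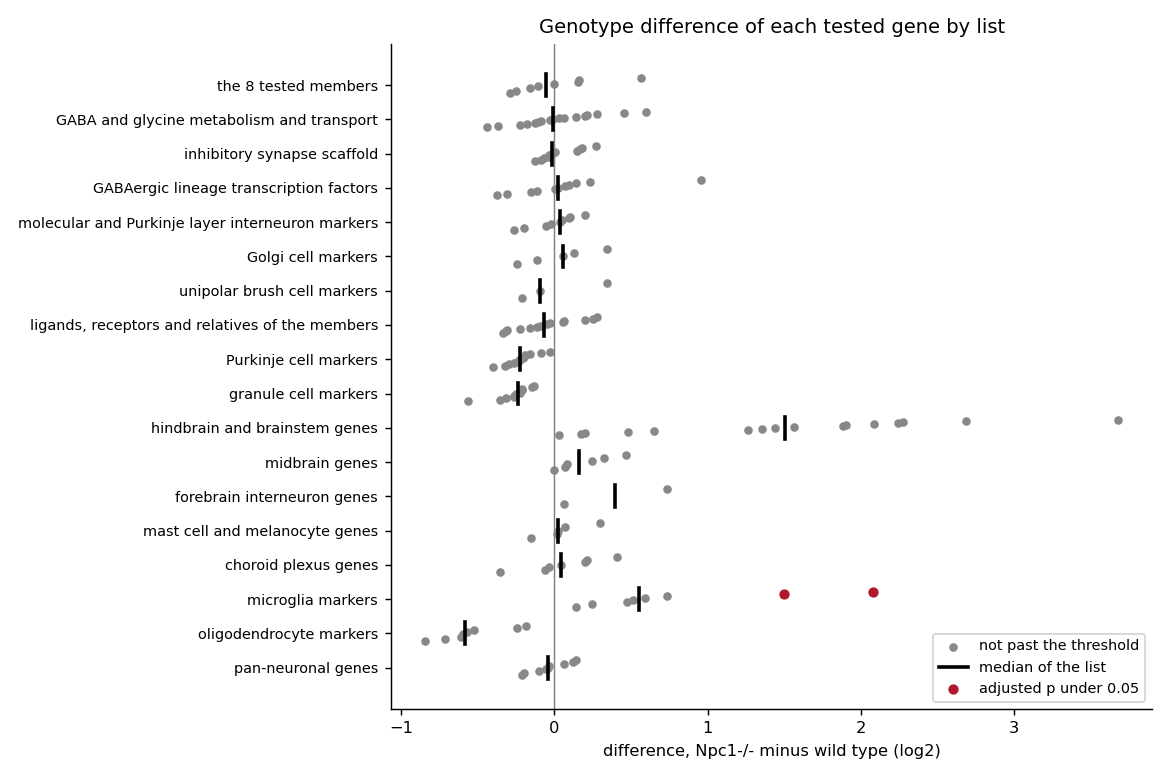
Difference between genotypes (x axis, log2, Npc1-/- minus wild type) of every tested gene in the members and in each of the other lists (y axis); grey points did not pass an adjusted p of 0.05, red points did, and black bars are list medians. The members and the lists of inhibitory genes lie around 0 (medians -0.07 to 0.058), the hindbrain and brainstem list lies to the right (median 1.5, but 0.20 for the 5 genes above background on all 8 arrays and 0.45 with normexp and quantile normalization), and the only red points are Cd68 and Trem2.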

How the data were processed

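Cy3-labelled RNA (500 ng per array) of whole cerebellum was measured on 8 Agilent arrays. The deposited intensity values come from Agilent's Feature Extraction software, version 9.5 by the submitters' processing notes; per the file headers, background was subtracted and the signal detrended array by array, with no scaling from one array to the next. Spots with an outlier flag (74 to 115 per array) were left out, log2 signals were taken relative to the array's 75th percentile, and spots of a probe were averaged. Probes were kept where 4 or more of the 8 arrays showed them well above background (27162), and a gene is its brightest probe on average (17981 genes). No spot was saturated. Names were updated through RefSeq tables of GRCm38.p6 (22951 probes by accession, 6659 by symbol, 3109 by synonym, 8455 unchanged), and probe coordinates are the files' own, in mm7. Illumina bead arrays of the series, which number probes without gene names, were not used here.

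The genotype comparison used limma 3.58.1 under R 4.3.3 (lmFit and eBayes, two-sided, Benjamini-Hochberg over all genes or probes). The scripts were tested on simulated data. Correlations between members have exact permutation p-values (scipy 1.17.1). The number of arrays limits the precision, and for Pax2 and Grm2 so does signal near background. The members, the 17 other lists and the tests were chosen with earlier results of these data known. Named genes are the members with every probe, Npc1, per list up to 4 passing genes or else the 2 of highest mean signal, and the 3 genes most like each member; further names are of genes seen to vary with a member or to stand out in a list, chosen after values were seen. Some genes that the rule takes are left out of the text. Alternatives covered normalization, scaling, filters, probe summary, slide, scan day, replicate number, array weights and single arrays.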

Additional observations from a re-analysis of the deposited data

Results flagged for a closer look

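Among 86 groups of 4 arrays (43 genes named by the rule, in each genotype), 5 had an array whose gap to its nearest neighbour, as a share of the group's range, was above Dixon's 95% critical value for 4 values. Chance alone gives about 1 such group in 20. Slc32a1 read 6.15 on Npc1-/- array 4, and the next of its genotype read 5.93. Pax2 read -5.52 on Npc1-/- array 3, with the next at -5.06, and this probe was near background. Calb2, the calretinin gene, read 3.37 on Npc1-/- array 4, with the next at 3.22. Penk, the enkephalin precursor, read 5.08 on wild-type array 3, with the next at 4.69, the array that was also highest for Gad1, Slc32a1, Pvalb and Kit. Dct, a melanocyte enzyme gene, read -0.96 on Npc1-/- array 1, with the next at -1.07.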

How the results depend on the processing

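No member passed the threshold under any of the 19 alternatives run. Over all genes, the counts higher and lower, 132 and 6 as reported, were 83 higher with probes above background on all 8 arrays, 69 with array median scaling, 82 with quantile normalization of processed signals, 56 and 3 with no filter, 245 and 64 with array weights and 37 and 1 with the slide as a block. Without single arrays they ran from 52 to 144 higher and from 2 to 8 lower, and without wild-type arrays 2 and 3 together, a setting added after seeing the data, they were 84 and 2. In the 7 lists of interneuron and GABA or glycine genes, 1 gene (Slc6a12) passed with array weights and none otherwise. The replicate block gave 26 higher and 1 lower; same-numbered arrays did not pair (correlations of their deviations 0.15, 0.038, -0.45 and 0.20, and 3 of 8 arrays correlated best with their own number), and the block changed no call of a member.

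Gad1, at 0.00012, was negative with array median scaling (-0.11), array weights (-0.050), the mean of its probes (-0.053), without wild-type arrays 2 and 3 together (-0.092), without Npc1-/- array 1 (-0.0099), 2 (-0.0053) or 3 (-0.019) and without wild-type array 2 (-0.12); leaving out single arrays gave -0.12 to 0.061. Slc32a1 turned to 0.064 with normexp and quantile normalization. Array median scaling subtracts a single value per array, so genes with a value on every array move alike. It lowered the median of all genes by 0.11 (shift -0.11). For the other changes of sign the cause was not tested. The other 6 members kept their direction in all alternatives that gave a value; of 151 member values 142 kept direction and side of the threshold. Of 323 list medians 25 moved by more than the spread between arrays. The number of arrays and the dim Pax2 and Grm2 probes limit what can be seen.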
